A study of Mus musculus with 87 samples.

Results

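Newborn mouse heart was described here by what sets it apart from 3 other organs of the same age. The tested samples were the 3 heart libraries labelled pWT at postnatal day 1 (P1), of 87 libraries in the series, and the samples they were set against were the 3 kidney, 3 liver and 3 lung libraries of the same label and age, with each organ given the same weight. The series is about semi-cloned mice, which are made with androgenetic haploid stem cells in the place of sperm. The labels do not spell out the prefix p or the name pIR, and they state neither sex nor strain. Libraries that took no part in choosing genes were used for repeats of the same contrast: pIR at P1 (2 heart, 2 kidney, 2 liver and 2 lung libraries) and pWT at E18.5 from batch 1 (2 of each organ), with 4 more pWT hearts at E18.5 from batch 2. All were polyadenylated RNA of tissue in bulk. Batch 1 and batch 2 stand for sets of E18.5 libraries deposited in separate tables, and no library title names a batch. Within batch 1 each organ had a table of its own, so organ and table cannot be told apart in the E18.5 contrast. The labels do not say whether libraries of a group came from separate animals, so a p-value measures the spread between these libraries, which may be technical.

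The P1 pWT hearts held 13904567, 18253632 and 15143677 counts, against 16215236 to 18300721 in kidney, 14038345 to 15260060 in liver and 17831508 to 19673513 in lung. The pIR libraries held 15087650 to 21015410 counts and the E18.5 libraries of batch 1 held 19021515 to 26057795. Replicates differed by more than counting noise in every group, with a chi-square per degree of freedom of 9.74 to 36.4 among the P1 pWT groups and 60.4 between the 2 pIR hearts. In the E18.5 pWT groups of batch 1 it was 252 for liver, 68.8 for kidney, 32.9 for heart and 13.7 for lung. Levels are given as CPM, which is the count of a gene scaled to the same total in every library. The second pIR heart stood apart: its 13 atrial genes summed to 17234 CPM, against 2082 CPM in the first pIR heart and 1546 to 3421 CPM in the pWT hearts. Its 10 ventricular genes summed to 8878 CPM, against 22887 CPM in the first pIR heart and 27439 to 29701 CPM in the pWT hearts. The single genes described as called between pIR and pWT are given with and without it, and some counts of lists with it only.

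The heart is a muscle of cardiomyocytes that contract without pause, together with endothelial cells, fibroblasts, smooth muscle of the vessels, epicardium, valves and nerves. In each cardiomyocyte, myosin of the thick filament pulls on actin of the thin filament. The troponins gate that pull by calcium, which is released from and pumped back into the sarcoplasmic reticulum at every beat. Around birth the mouse heart is known to turn from glucose and lactate to fatty acids as fuel, and from fetal to adult forms of several contractile proteins. Tissue was measured in bulk, so fewer cells of a type and less RNA per cell cannot be told apart in any value that follows.

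The labels were checked against marker genes. The cardiomyocyte markers Actc1, Tnnt2, Tnni3, Myh6, Myh7 and Nkx2-5 lay above every kidney, liver and lung library in all 3 hearts. The same was so for 10.7% of all genes tested. Myl7, another marker of the planned list, did not: it averaged 104 CPM in heart and stood at 85.0, 180 and 194 CPM in the lungs. Markers of the other organs were low in heart: the kidney list summed to 34.8 to 40.8 CPM in heart and 3496 to 4224 CPM in kidney, the hepatocyte list to 117 to 146 CPM in heart and 74407 to 91359 CPM in liver, and the lung epithelial list to 51.1 to 72.4 CPM in heart and 24986 to 26872 CPM in lung. The lung libraries, in turn, carried cardiac RNA. Myh6 stood at 212, 350 and 455 CPM in the 3 lungs, which is 2.63% of its heart level on average, and Actc1 stood at 2.23% and Tnnt2 at 1.43% of their heart levels. The ventricular light chain Myl2 was at 0.068% of its heart level in lung. The atrial light chains Myl7 and Myl4 were at 147% and 87.7% of theirs, and Sln, at 2.53 CPM in heart, was at 198%. Contrasts with lung therefore start from a floor of cardiac transcripts, and where that RNA came from was not tested.

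Most of the transcriptome differed between heart and the other organs. Of 17199 genes tested with the quasi-likelihood test of edgeR, 5564 (32.4%) were higher in heart than in the mean of the other 3 organs and 5892 (34.3%) were lower, at an adjusted p under 0.05. A call against the mean is therefore common, and a stricter rule was used to name heart genes: an adjusted p under 0.05 and at least a 4-fold excess over kidney, over liver and over lung, each taken singly. This rule chose 475 genes (2.76% of those tested), and 419 genes (2.44%) were at least 4-fold lower than in each of the other organs. The 475 heart genes are defined by this contrast, so their excess at P1 is a description and not a test.

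The heart genes spanned 0.773 to 13815 CPM in pWT heart, with a median of 51.9 CPM. Of them, 36 stood at 1000 CPM or more, 149 between 100 and 1000, 158 between 10 and 100, and 132 under 10. They took up 17.3%, 19.7% and 17.6% of all counts in the 3 hearts. The same genes took up 0.912% to 0.995% of counts in kidney, 0.463% to 0.470% in liver and 0.789% to 1.05% in lung. For 67 of them the excess was at least 64-fold over every other organ. Just inside the 4-fold limit (2 on the log2 scale) lay Cox6c at 2.00, 3830403N18Rik at 2.00 and Mapk10 at 2.00, and genes just outside included Sirt5 at 1.99 and Msx1os at 1.97. In 469 of the 475 the annotation gave coordinates, and 12 of these overlap another heart gene whose level was at least 10 times higher, so that reads of the pair cannot be told apart without the strand, whose handling is not stated.

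Among annotated genes of at least 20 CPM in heart, the 12 farthest above every other organ were Irx4, Myl2, Mb, Pln, Myl3, Ckmt2, Nppa, Ccdc63, Asb11, Ucp3, Mov10l1 and Yipf7. Irx4, a homeobox factor known for ventricular identity (chromosome 13, 73260479 to 73269608, plus strand), had 110, 106 and 143 CPM in the 3 hearts. It gathered 5632 reads in the hearts and 8 reads in the 9 other libraries together. Myl2, the ventricular regulatory light chain of myosin (chromosome 5, 122100951 to 122113472, plus strand), had 12564, 15009 and 13871 CPM in heart, against a lowest, median and highest value of 0.176, 4.77 and 10.9 CPM in the other 9 libraries. No heart came near any other library for either gene, and the log2 fold change of Myl2 over the mean was 12.24 ± 0.32 (SE; adjusted p = 3.12e-13, edgeR). Its neighbour Ccdc63, on the opposite strand of an overlapping stretch, had 73.1, 88.0 and 75.2 CPM in heart, and reads of the Myl2 locus could be counted there.

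Mb, which encodes the oxygen store myoglobin, had 3211, 3342 and 3221 CPM in heart and 0.354 to 6.73 CPM elsewhere. Pln, the brake on the calcium pump of the sarcoplasmic reticulum, had 4977, 3591 and 4226 CPM in heart and 0.185 to 9.03 CPM elsewhere. Both differed from the other organs by 10.95 on the log2 scale, with an SE of 0.35 for Mb and 0.22 for Pln and adjusted p-values of 2.52e-12 and 3.52e-14 (edgeR). Nppa, the atrial natriuretic peptide, spread most among the hearts of these 12, at 1040, 2859 and 1439 CPM, and still cleared the other libraries, whose highest value was 6.51 CPM.

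The rest of the 12 were of lower level. Ckmt2, the muscle creatine kinase of mitochondria, had 115, 167 and 145 CPM in heart, with 6857 reads there and 23 in the 9 other libraries. Ucp3, an uncoupling protein of muscle mitochondria, had 74.4, 51.1 and 67.8 CPM in heart and at most 0.449 CPM elsewhere. Mov10l1, an RNA helicase best known from the germ line, gathered 4132 reads in the hearts and 35 in the other libraries. Yipf7 gathered 2657 and 28 reads, and Asb11, an ankyrin repeat protein with a SOCS box, stood at 124, 92.6 and 103 CPM in heart. For all of these the 3 hearts lay above every other library, as they did for 474 of the 475 heart genes. The heart genes were chosen for their excess in these same libraries, so nothing is read from that count. Every heart library lay above every other library for 1842 of the 17199 genes (10.7%).

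**Figure D1:**
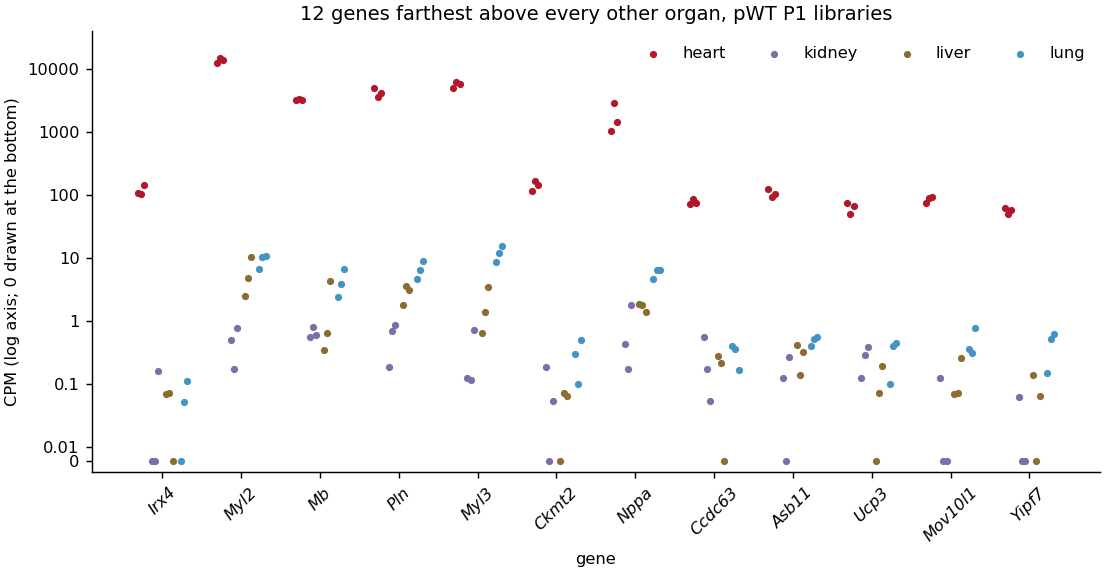
Level in CPM (log axis, with values of 0 at the bottom) of the 12 genes farthest above every other organ, in the 3 heart, 3 kidney, 3 liver and 3 lung libraries of P1 pWT, 1 point per library. The hearts sit at or above 50 CPM for each gene, while no other library passes 15.3 CPM.

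Promoters of the heart genes were searched for 5 short motifs in the 250 bases upstream of each annotated start (RefSeq, GRCm38.p6), on both strands. Windows were found for 340 of the 475 heart genes (435 windows, since some genes have several starts) and for 309 of the 419 genes that were lowest in heart (390 windows). The MEF2 site, bound by the MEF2 factors of muscle, lay in 37 heart gene windows (8.51%, 36 genes), against 3 of the windows of genes lowest in heart (0.769%) and 555 of all 32851 windows (1.69%). The CArG box, bound by serum response factor, lay in 14 heart gene windows (3.22%, 12 genes), against 4 windows (1.03%) of the genes lowest in heart and 1.47% of all windows. A GATA site (AGATAA or TGATAA) was held by 15.9%, 12.3% and 16.6% of these same 3 sets, the NKX2-5 core AAGTG by 36.3%, 37.7% and 40.7%, and TATAAA by 14.7%, 9.49% and 12.4%. The shares of the last 3 motifs in heart gene windows were thus within a few percentage points of those in all windows. The same holds for the CArG box, which is rare in both. No test was made of these shares, and a match says only that the letters are present.

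The stretches around the MEF2 site are shown for the 6 heart genes of highest level that hold one, read 5′ to 3′ on the strand of the gene, with the site in capitals. They belong to the giant sarcomere spring titin (Ttn, chr2:76982659-76982758, minus strand, site 157 bases before the start), myosin-binding protein C (Mybpc3, chr2:91118009-91118108, plus strand, 81 bases), the calcium store calsequestrin (Casq2, chr3:102086301-102086400, plus strand, 60 bases), the Z-disc protein myozenin 2 (Myoz2, chr3:123034988-123035065, minus strand, 24 bases), muscle phosphoglycerate mutase (Pgam2, chr11:5803822-5803921, minus strand, 71 bases) and the Z-disc protein Synpo2l (chr14:20664664-20664763, minus strand, 135 bases).
Ttn: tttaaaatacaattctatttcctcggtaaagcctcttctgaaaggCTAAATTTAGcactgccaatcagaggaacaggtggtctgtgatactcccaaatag
Mybpc3: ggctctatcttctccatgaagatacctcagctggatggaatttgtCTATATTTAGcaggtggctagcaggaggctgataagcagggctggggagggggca
Casq2: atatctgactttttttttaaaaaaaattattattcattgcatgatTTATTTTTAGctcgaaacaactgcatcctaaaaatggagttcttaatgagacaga
Myoz2: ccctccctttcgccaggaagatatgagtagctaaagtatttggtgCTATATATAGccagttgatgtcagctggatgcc
Pgam2: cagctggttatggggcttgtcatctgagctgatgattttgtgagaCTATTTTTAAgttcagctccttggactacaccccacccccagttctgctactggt
Synpo2l: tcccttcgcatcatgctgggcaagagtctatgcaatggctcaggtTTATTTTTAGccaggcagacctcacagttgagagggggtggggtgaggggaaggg

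The CArG box is shown in the same way, in capitals, for the 3 heart genes of highest level that hold it: cardiac alpha actin (Actc1, chr2:114052876-114052967, minus strand, 38 bases before the start), the ventricular essential light chain of myosin (Myl3, chr9:110763548-110763647, plus strand, 76 bases) and the Z-disc protein cypher (Ldb3, chr14:34588662-34588761, minus strand, 100 bases).
Actc1: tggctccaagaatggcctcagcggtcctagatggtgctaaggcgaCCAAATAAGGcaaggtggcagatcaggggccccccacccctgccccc
Myl3: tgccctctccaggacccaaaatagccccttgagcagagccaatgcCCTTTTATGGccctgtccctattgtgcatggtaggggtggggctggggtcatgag
Ldb3: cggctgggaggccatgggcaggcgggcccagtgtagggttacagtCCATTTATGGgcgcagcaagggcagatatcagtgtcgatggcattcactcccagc

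Contractile genes were far above the other organs. In the list of thick filament and M band genes, 13 of 14 were higher in heart and 10 were above each other organ, with a median log2 fold change of 7.59. In the thin filament list, all 14 were higher (median 6.75) and 11 were above each organ, and in the list of Z disc genes and sarcomere chaperones, all 22 were higher (median 6.97, or 6.79 with Hspb3, which had no read in an organ, at its bound) and 19 were above each organ. Over all genes tested the median was -0.07, and 32.4% were called higher. Myom3, of the M band, was the only member of these 3 lists that did not pass, at 0.63 (adjusted p = 0.0524, edgeR).

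The 4 most abundant transcripts of the thick filament were Myl2, Myh6, Myl3 and Myh7. Myh6, the alpha myosin heavy chain (chromosome 14, 54941921 to 54966927, minus strand), had 12556, 13230 and 12880 CPM in heart, against a lowest, median and highest value of 0.644, 5.56 and 455 CPM in the other libraries. Myh7, the beta chain and its neighbour on chromosome 14 (54970684 to 54994626, minus strand), had 3857, 4053 and 4541 CPM in heart and 0.802, 3.63 and 138 CPM elsewhere. Neither gene overlapped between heart and the other libraries, with log2 fold changes of 9.58 ± 0.40 for Myh6 (adjusted p = 4.19e-11) and 9.10 ± 0.24 for Myh7 (adjusted p = 3.31e-13, edgeR). The highest of the other values were in lung for both. The 2 myosins are near-identical in sequence, and the antisense gene Mhrt, at 2782 CPM in heart, lies across Myh7, so their counts may be split or shared.

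Myl3, the ventricular essential light chain, had 5100, 6157 and 5877 CPM in heart and 0.117 to 15.3 CPM elsewhere. Its log2 fold change of 11.58 ± 0.30 (adjusted p = 2.82e-13, edgeR) was close to that of Myl2. On the thin filament, Actc1, cardiac alpha actin, had 10052, 18748 and 11180 CPM in heart, against 0.351, 4.70 and 397 CPM as lowest, median and highest elsewhere. The second heart was the highest of the 3, and all lay far above the other libraries (10.12 ± 0.38, adjusted p = 1.24e-11, edgeR). Tnnt2, the troponin that ties the complex to tropomyosin, had 10963, 9800 and 9779 CPM in heart and at most 189 CPM elsewhere. Tnnc1, the calcium-binding troponin, had 2703, 3376 and 2755 CPM in heart and at most 70.5 CPM elsewhere. Tpm1, tropomyosin, is used by many cells, and its excess was smaller, at 4.15 ± 0.14 on the log2 scale (adjusted p = 3.15e-12, edgeR), with 5804, 8042 and 6099 CPM in heart and 156 to 716 CPM elsewhere.

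Of the Z disc, Actn2, the alpha-actinin that anchors thin filaments, averaged 1904 ± 205 CPM in heart (SD, n = 3) and 50.8 CPM in lung, with 0.899 CPM in kidney and 1.31 CPM in liver. Ldb3 averaged 1113 CPM in heart and 24.9 CPM in lung. Hspb7, a small heat shock protein of heart muscle, was the steadiest of the 4, at 1463, 1482 and 1504 CPM in the 3 hearts. Des, the intermediate filament desmin, is shared with smooth muscle, and its excess over lung was 2.90 on the log2 scale, against 5.93 over kidney and 6.56 over liver.

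**Figure D2:**
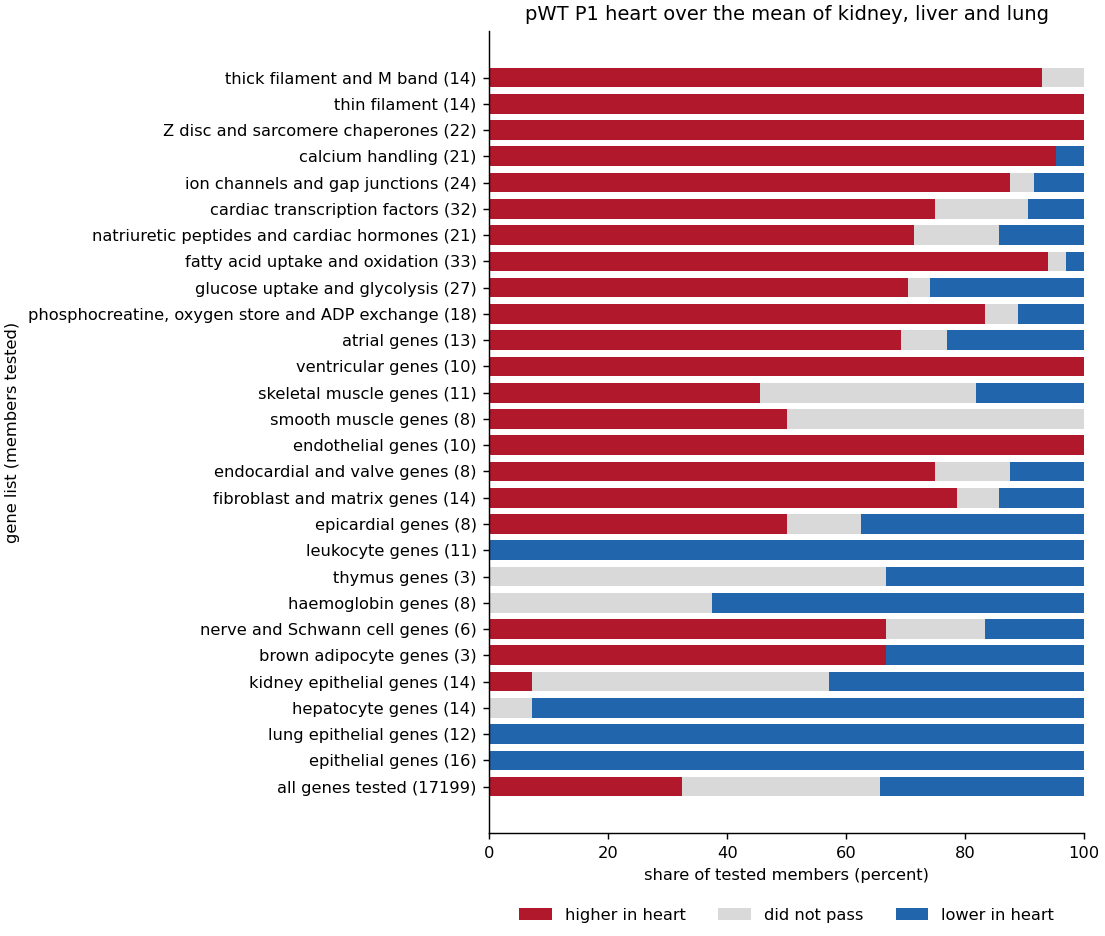
Share of tested members of each gene list (number tested in brackets) that were higher in heart (red), lower in heart (blue) or did not pass (grey) in P1 pWT heart over the mean of kidney, liver and lung, with all 17199 genes at the bottom. The contractile, calcium, ventricular and fatty acid lists are almost wholly red, while the leukocyte, lung epithelial and epithelial lists are wholly blue.

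Calcium handling followed the contractile genes. Of 21 tested members, 20 were higher in heart, 1 was lower and 13 were above each organ, with a median log2 fold change of 4.09. Atp2a2, the calcium pump of the sarcoplasmic reticulum, had 4414, 4746 and 4221 CPM in heart and 211 to 516 CPM elsewhere. It is used outside muscle too, and its excess of 3.84 ± 0.093 (adjusted p = 1.33e-13, edgeR) was far below that of its inhibitor Pln. Casq2 averaged 906 CPM in heart and 20.7 CPM in lung, the highest of the other organs, and Srl, sarcalumenin of the same store, averaged 1032 CPM in heart and 40.1 CPM in lung. Atp2b4, a calcium pump of the plasma membrane, was lower, by 0.64 ± 0.10 on the log2 scale (adjusted p = 8.37e-05, edgeR). It averaged 83.5 CPM in heart, 59.0 in kidney, 272 in liver and 157 in lung, so heart was above kidney, and the difference stood at 0.15 when liver was left out of the mean.

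Of 24 tested genes for ion channels and gap junctions, 21 were higher in heart and 2 were lower (median 3.26). Gja1, connexin 43, had 605, 731 and 602 CPM in heart and 8.19 to 326 CPM elsewhere, and since lung held 260 CPM on average it was not among the heart genes. Abcc9, a subunit of the ATP-gated potassium channel, averaged 299 CPM in heart and 37.8 to 48.4 CPM in the other organs. Kcne1, a partner of a potassium channel, gathered 5987 reads in the hearts, 205 in kidney, 2 in liver and 8 in lung. The 2 genes that were lower were scarce in heart: Fgf12, a modulator of sodium channels, at 0.752 CPM, and Scn4b, a sodium channel subunit, at 0.216 CPM.

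Of 32 tested cardiac transcription factors, 24 were higher in heart, 3 were lower and 5 did not pass (median 3.16), and 12 were above each organ. Isl1, of cardiac progenitors, was too scarce to test, with 18 reads in the hearts and 27 elsewhere. Nkx2-5, the homeobox factor of cardiomyocytes, had 92.1, 119 and 111 CPM in heart. It gathered 5132 reads there, 0 in kidney, 2 in liver and 58 in lung, and no fold is given against an organ at 0. Irx4 was as sharply divided, as given above. Hand1, known from the left ventricle, was scarce, with 179 reads in the hearts and 1 in the other libraries.

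Gata4 and Hand2, early regulators of heart development, also had reads in liver. Gata4 had 177, 242 and 199 CPM in heart and gathered 9889 reads there, against 3 in kidney, 1031 in liver and 201 in lung. Hand2 had 139, 142 and 154 CPM in heart, with 6858 reads, against 2, 681 and 107 reads in kidney, liver and lung. Tbx20, a T-box factor of myocardium and valves, had 378, 336 and 324 CPM in heart and at most 27.1 CPM elsewhere, and Smyd1, a methyltransferase of striated muscle, had 512, 568 and 547 CPM in heart and at most 17.4 CPM elsewhere. Their log2 fold changes were 7.41 ± 0.26 and 8.5 ± 0.18 (adjusted p = 6.48e-12 and 4.45e-14, edgeR). Myocd, the coactivator myocardin, had 68.5, 61.4 and 56.5 CPM in heart and at most 7.96 CPM elsewhere. Mlip, a lamin-interacting muscle protein, gathered 5766 reads in heart, 1 in kidney, 2 in liver and 188 in lung.

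Other members were spread more widely. Mef2a, Mef2c and Mef2d, whose site was counted in the promoters above, were higher by 2.11 ± 0.094, 1.80 ± 0.17 and 1.26 ± 0.079 on the log2 scale, and Mef2a averaged 350 CPM in heart, 106 in kidney, 34.8 in liver and 167 in lung. Srf, which binds the CArG box, was higher by 1.15 ± 0.11 (adjusted p = 4.79e-07, edgeR). Gata6, Hey2, Zfpm2, Prox1 and Hopx rose by 3.71, 4.78, 3.40, 2.75 and 3.69, but Hopx was at 561 CPM in heart against 449 CPM in lung. Tbx5, known for the left ventricle and atria, averaged 34.7 CPM in heart and 116 CPM in lung, and Irx5 had 1095 reads in heart and 2288 in lung. Irx3, Tead1, Tbx18 and Prdm16 were also called higher, Prdm16 by 0.77, which became -0.38 when liver was left out of the mean.

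The 3 factors that were lower were Tbx2, Tbx3 and Nr2f2, known from the atrioventricular canal, the conduction system and the atria. They averaged 25.6, 31.8 and 51.8 CPM in heart and 441, 232 and 206 CPM in lung, with log2 fold changes of -1.76, -1.24 and -1.62 over the mean. Gata5 stood at -0.76 (adjusted p = 0.152), Hey1 at -0.03 (0.928), Meis1 at 0.18 (0.0779) and Shox2 at 1.19 (0.0608, all edgeR), and none of these passed.

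Among natriuretic peptides, cardiac hormones and their partners, 15 of 21 tested genes were higher in heart and 3 were lower (median 1.93), but only Nppa, Nppb and the growth factor gene Fgf16 were above each organ. Nppb, the B-type peptide, had 144, 311 and 104 CPM in heart and gathered 9256 reads there, against 3 in kidney, 17 in liver and 91 in lung. Both peptides were highest in the second heart. Corin, the protease that activates the atrial peptide, had 162, 69.5 and 110 CPM in heart and 83.5 CPM on average in kidney, so that hearts and kidneys overlapped. Aplnr, the apelin receptor, averaged 202 CPM in heart and 262 CPM in lung. Mme, which degrades these peptides, averaged 3.15 CPM in heart and 156 CPM in kidney. Nrg1, a growth factor of endocardium, was lower by 1.01 ± 0.24 (adjusted p = 0.00216, edgeR), at 1.86 CPM in heart.

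Genes of fatty acid uptake and oxidation rose together. Of 33 tested, 31 were higher in heart, 1 was lower and Ppard did not pass, with a median of 2.36, while only 6 were above each organ. Summed over the list, heart held 16794 to 18930 CPM, against 2466 to 2712 in kidney, 4428 to 4817 in liver and 2443 to 2588 in lung. Fabp3, the fatty acid binding protein of heart, had 3670, 4849 and 3612 CPM in heart and 1.63, 40.9 and 89.1 CPM as lowest, median and highest elsewhere. All hearts lay above every other library, with a log2 fold change of 7.86 ± 0.23 (adjusted p = 1.03e-12, edgeR).

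Cd36, which takes up fatty acids, averaged 1456 CPM in heart and 566 CPM in lung, and Lpl, which frees them from lipoproteins, averaged 1431 CPM in heart and 352 CPM in liver. Neither reached 4-fold over every organ, whereas Acadl, a dehydrogenase of beta-oxidation, did, with 1378, 1353 and 1193 CPM in heart and 121 to 245 CPM elsewhere. Carnitine palmitoyltransferase 1, the gate to the mitochondria, was present mainly in its muscle form. Cpt1b had 659, 810 and 744 CPM in heart and 12.4 to 47.7 CPM elsewhere (4.79 ± 0.15, adjusted p = 2.32e-12, edgeR), and a read-through gene model on its strand, Gm44502, held 880 CPM and may share reads with it. The liver form Cpt1a, at 178, 172 and 171 CPM in heart, was the member that was lower, by 0.64 ± 0.081 (adjusted p = 6.66e-06, edgeR), a difference that fell to 0.00 without liver in the mean.

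Of 27 tested genes of glucose uptake and glycolysis, 19 were higher and 7 were lower (median 1.53). The members of highest level that passed were Aldoa, Ldhb, Eno3 and Gpi1, enzymes of glycolysis and of lactate exchange, which averaged 1963, 1108, 1077 and 879 CPM in heart. Muscle enolase, Eno3, had 1053, 1162 and 1016 CPM in heart and at most 44.3 CPM elsewhere, and muscle phosphoglycerate mutase, Pgam2, averaged 560 CPM in heart and at most 22.9 CPM in another organ. The members that were lower were forms known from other cells, such as Slc2a2 and Pklr of liver at 0.366 and 0.103 CPM in heart and 109 and 110 CPM in liver. Slc2a1, the glucose transporter of most cells, was also lower, at 35.8, 34.7 and 29.6 CPM in heart against 44.2, 110 and 208 CPM as lowest, median and highest elsewhere. Slc2a3 and Pygl were lower by 2.22 and 1.19 on the log2 scale.

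In the list of phosphocreatine, oxygen store and ADP exchange, 15 of 18 genes were higher, 2 were lower and 9 were above each organ (median 2.67). Ckm, muscle creatine kinase, had 1787, 2177 and 1990 CPM in heart and at most 51.2 CPM elsewhere, although an antisense gene across it, A930016O22Rik, held 1236 CPM in heart. Slc25a4, the ADP/ATP carrier of muscle mitochondria, had 4228, 4639 and 4094 CPM in heart and 169 to 382 CPM elsewhere, with a log2 fold change of 4.10 ± 0.10 (adjusted p = 1.73e-13, edgeR). Cox6a2, a muscle subunit of cytochrome oxidase, had 742, 842 and 931 CPM in heart and at most 16.7 CPM elsewhere. Ckmt1 and Gatm, known from epithelia and from creatine synthesis in kidney, were the members that were lower, at 0.644 and 12.3 CPM in heart, and Gatm stood at 0.01 without liver in the mean.

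Chamber genes split between the lists. All 10 ventricular genes were higher in heart and 9 were above each organ, with a median of 8.92. Of 13 atrial genes, 9 were higher, 3 were lower and Dkk3 did not pass (median 2.99), and only Nppa, Kcnj3 and Kcna5 were above each organ. The atrial light chains did not clear lung. Myl7 had 101, 135 and 76.3 CPM in the hearts and 85.0, 180 and 194 CPM in the lungs. Myl4 had 114, 174 and 90.6 CPM in the hearts and 62.6, 125 and 144 CPM in the lungs. Hearts and lungs overlapped for both, and Gja5, connexin 40, was lower in heart (61.8 CPM) than in lung (135 CPM). Stard10 and Fgf12 were lower in heart than the mean, as was Nr2f2. Per length, the ventricular light chains far outweighed the atrial ones: Myl2 made up 97.4%, 97.1% and 98.2% of the summed Myl2 and Myl7 level, as CPM per kilobase of exon (RPKM) in pWT hearts, and Myl3 made up 99.0%, 98.8% and 99.3% of Myl3 and Myl4. In the 2 pIR hearts those shares were 89.2% and 19.5% for Myl2, and 97.0% and 60.9% for Myl3.

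Genes of the other cells of the heart showed smaller differences. All 10 endothelial genes were higher in heart than the mean, at log2 fold changes of 0.68 to 1.65 (median 1.08), but none was above each organ: Cdh5, the cadherin of endothelium, had 543, 561 and 667 CPM in heart and averaged 941 CPM in lung. Of 14 fibroblast and matrix genes, 11 were higher and 2, Tcf21 and Fn1, were lower (median 1.05; Tcf21 stood at 0.30 without lung in the mean), and Col3a1 averaged 1267 CPM in heart and 1348 CPM in lung. Of 8 epicardial genes, 4 were higher and 3 were lower, and only 1 was above each organ. The list summed to 133 to 197 CPM in heart, 567 to 625 in kidney, 25.0 to 45.8 in liver and 808 to 970 in lung. Its member Tbx18, an epicardial T-box factor, gathered 1485 reads in heart, 152 in kidney, 2 in liver and 39 in lung. Of 8 endocardial and valve genes, 6 were higher and Plvap was lower (median 0.61). Of 8 smooth muscle genes, 4 were higher (median 1.00), and Acta2, the smooth muscle actin, also known from fetal cardiomyocytes, ran at 697, 1890 and 718 CPM in the 3 hearts.

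Nerve genes were scarce. Dbh, which makes noradrenaline, had 2.95, 3.07 and 3.37 CPM in heart, with 148 reads against 2, 0 and 16 in kidney, liver and lung, and 4 of 6 tested members of its list were higher. Skeletal muscle genes were near their level elsewhere: 5 of 11 tested were higher and 2 were lower (median 0.30), the 19 members summed to 24.3 to 31.1 CPM in heart and 15 to 32.8 CPM in the other organs, and 8 were too scarce to test. Only Myl1, a fast light chain, was above each organ, at 6.54, 12.5 and 6.80 CPM. Of the brown adipocyte list, Fabp4, also known from capillary endothelium, had 1340, 1503 and 1395 CPM in heart and at most 184 CPM elsewhere, and Cidea averaged 44.2 CPM. Cidec was lower, at 0.264 CPM, but stood at 0.05 without liver in the mean, and Ucp1, Adipoq, Plin1 and Elovl3 were too scarce to test.

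Blood cells and epithelium were where heart was low. All 11 leukocyte genes tested were lower than the mean (median -1.59): Lyz2, of macrophages and neutrophils, had 33.7, 30.8 and 32.3 CPM in heart, against an average of 243 CPM in liver and 2090 CPM in lung. Kidney was as low as heart for this list, which summed to 128 to 144 CPM in heart and 115 to 144 CPM in kidney. Of 8 haemoglobin genes, 5 were lower than the mean, and Hbb-bs averaged 1403 CPM in heart, 230 in kidney, 19559 in liver and 7811 in lung, so that heart lay above kidney, and without liver in the mean its difference of -1.15 became 0.43. The values of Hba-a1 and Hba-a2 were identical in every library, as for copies that cannot be told apart.

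The general epithelial list was lower in heart without exception, with 16 of 16 genes (median -5.10) and 9 below each organ. Over all genes, 34.3% were called lower. The 6 genes lowest in heart against every organ, among those of at least 20 CPM in each of the others, were Grb7, Cdh1, Fgfr4, Tmem30b, Mal2 and Pls1. Cdh1, the cadherin of epithelia, had 1.15, 0.383 and 0.660 CPM in heart and 64.2, 354 and 524 CPM as lowest, median and highest elsewhere, a log2 fold change of -8.31 ± 0.21 (adjusted p = 2.4e-13, edgeR). Grb7, an adaptor of receptor tyrosine kinases, had 0.288, 0.219 and 0.132 CPM in heart and at least 36.2 CPM elsewhere. No heart overlapped with another library for any of the 6, which were chosen for their fall in these same libraries. Every heart library lay below every other library for 1819 of all 17199 genes (10.6%).

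Marker lists of the other organs depended on how many organs express them. The lung epithelial list was lower in 12 of 12 genes (median -3.61), the hepatocyte list in 13 of 14 (median -3.15) and the kidney list in 6 of 14, with 1 higher and a median of -3.85. A gene absent from 1 organ has no finite mean on the log scale, and Nphs1, Slc34a1, Pax2, Pax8 and Slc22a6 of the kidney list had an organ at 0 reads and an adjusted p of 1.00. An organ at 0 does not by itself prevent a call, since Ctnna3 and Popdc3, at 0 CPM in liver, were called higher in heart. Of the kidney list, 3 members had no read in heart. The kidney gene that was higher was Wt1, at 28.3 CPM in heart and 184 CPM in kidney, and it is also an epicardial gene. Albumin transcripts were present at a low level in heart: Alb had 27.3, 34.6 and 26.5 CPM in heart, 21.0 CPM in kidney and 15.5 CPM in lung on average, against 22230 CPM in liver.

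Pairs of genes that encode the muscle and the common form of a protein, or the adult and the fetal form, were compared per length of exon, in RPKM. In P1 pWT hearts, Myh6 made up 80.7%, 80.7% and 78.4% of the Myh6 and Myh7 RPKM, at 1916 ± 50.1 RPKM for Myh6 and 482 ± 40.9 for Myh7 (SD, n = 3). At E18.5 the share of Myh6 was 47.1% and 39.8% in batch 1 and 38.5% to 53.5% in the 4 hearts of batch 2. The P1 hearts thus lay above all 6 E18.5 hearts, and the Myh6 RPKM itself was of like size (1967 and 2020 RPKM in the 2 batches), while Myh7 stood at 2575 and 2322 RPKM. The P1 libraries came from a table of their own and no title names a batch, so age and batch cannot be told apart. These values are set side by side with no test.

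Several other pairs were placed in the same way. Tnni3, the adult cardiac troponin I, made up 75.7%, 75.5% and 74.1% of the pair with the fetal Tnni1 at P1, against 58.5% and 58.0% in batch 1 and 57.9% to 62.1% in batch 2 at E18.5. Slc2a4, the insulin-regulated glucose transporter, made up 74.0%, 77.6% and 75.9% of the pair with Slc2a1 at P1, against 37.3% and 37.5% and 34.2% to 42.0%. Slc2a4 itself stood at 30 RPKM at P1 and 37.9 and 26.5 RPKM in the E18.5 batches, and Slc2a1 at 9.52 RPKM at P1 and 63.3 and 40.7 RPKM at E18.5. Ldhb made up 77.8%, 73.6% and 76.5% of lactate dehydrogenase B and A at P1, against 53.9% and 54.3% and 54.3% to 56.9%. For these pairs every P1 heart was above every E18.5 heart of both batches. Eno3 with Eno1 (89.2% ± 1.18 at P1, against means of 83.0% and 81.6% in the E18.5 batches), Pgam2 with Pgam1 (94.3% ± 1.00, against 82.8% and 78.9%) and Slc25a4 with Slc25a5 (79.9% ± 0.901, against 76.2% and 70.5%) were placed likewise. So were the ventricular light chains: Myl2 reached at most 96.7% of its pair with Myl7, and Myl3 at most 97.8% of its pair with Myl4, in any E18.5 heart, below the P1 shares given above.

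The remaining pairs did not part the P1 hearts from both E18.5 batches in 1 direction. Cpt1b made up 89.3%, 91.4% and 90.8% of the Cpt1 pair at P1, against 95.7% and 94.2% in batch 1 and 91.2% to 92.8% in batch 2 at E18.5. Actc1 made up 99.1% ± 0.164 of the pair with Acta1, skeletal alpha actin, at P1, and 98.6% and 99.2% in the E18.5 batches. The 2 batches of E18.5 themselves disagreed for subunits of cytochrome oxidase: Cox6a2 was 52.1% and 52.6% of its pair in batch 1 and 67.3% to 74.8% in batch 2, and Cox7a1 was 53.7% and 56.3% in batch 1 and 28.8% to 30.2% in batch 2. In the P1 hearts these shares were 73.7%, 66.8% and 76.1% for Cox6a2 and 35.3%, 35.5% and 33.5% for Cox7a1. Ckm with Ckb (95.3% ± 0.928 at P1, against 92.7% and 94.4%), Cox8b with Cox8a (41.6% ± 2.63, against 42.6% and 41.3%) and Hk2 with Hk1 (26.8% ± 3.62, against 25.1% and 36.9%) overlapped between the ages.

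**Figure D3:**
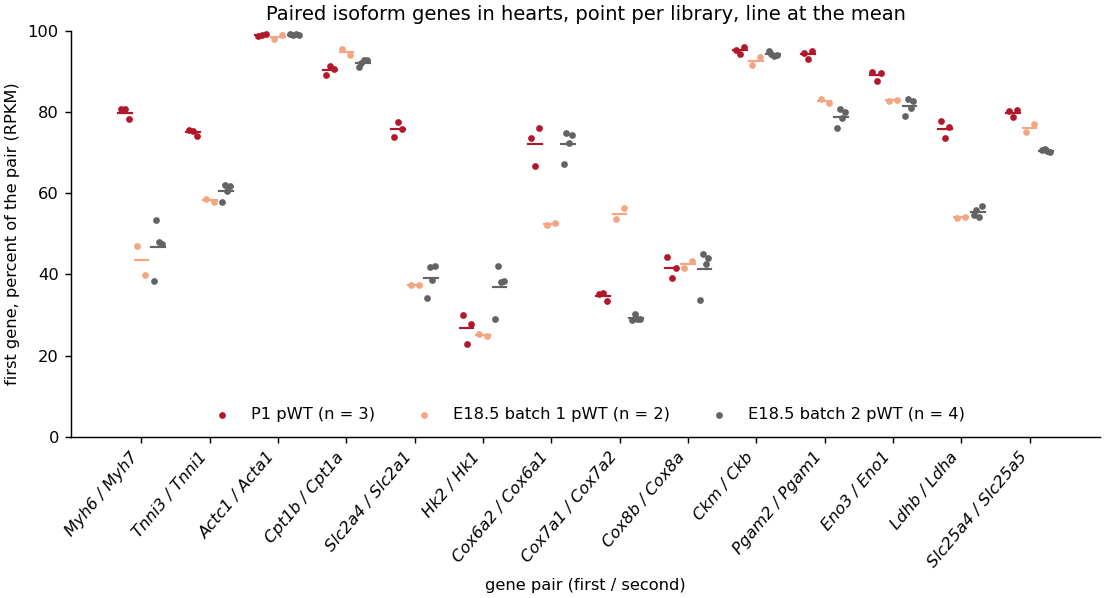
Share of the first gene of each pair in the summed RPKM of the pair (percent), for P1 pWT hearts (red, n = 3), E18.5 batch 1 pWT hearts (orange, n = 2) and E18.5 batch 2 pWT hearts (grey, n = 4), with 1 point per library and a line at the group mean. Myh6, Tnni3, Slc2a4 and Ldhb lie higher at P1 than in any E18.5 heart, whereas the cytochrome oxidase pair of Cox7a1 parts the 2 batches of E18.5, at 55.0% and 29.2%.

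The heart genes were then read in libraries that took no part in choosing them. In the P1 pIR libraries, 463 of the 475 could be tested and 460 were higher in heart, 0 were lower and 3 did not pass, where 28.4% of all 17323 genes were called higher. With the second pIR heart left out, 461 of 467 tested were higher. The median log2 fold change was 5.03 (4.52 with 78 genes that have an organ at 0 set at their bound), against -0.01 over all genes. In E18.5 pWT libraries of batch 1, 458 could be tested, of which 439 were higher, 0 were lower and 19 did not pass, where 22.6% of 17331 genes were called higher. There 456 of the 458 differences were positive, with a median of 5.38 (4.91 with bounds), against -0.12 over all genes. Genes not tested had fallen to the filter on low counts, which a gene scarce in the other organs passes only through heart. Counts of tested genes thus leave out those scarce in the hearts of that set. With no such filter, 469 of all 475 were higher in pIR and 442 of 475 at E18.5.

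Applied anew, the 4-fold rule chose 501 genes in pIR (2.89% of those tested) and 552 at E18.5 (3.19%). The P1 pWT genes shared 369 with the pIR genes, which is 77.7% of the P1 pWT genes and 73.7% of the pIR genes. They shared 362 with the E18.5 genes, which is 76.2% of the P1 pWT genes and 65.6% of the E18.5 genes. All 3 sets held 312 genes, and 56 of the P1 pWT genes were in neither of the others. Ucp3 was the exception among the 12 genes farthest above the other organs: it had 74.4, 51.1 and 67.8 CPM in P1 pWT hearts and 186 and 99.4 CPM in P1 pIR hearts, but 0.0953 and 0.631 CPM in the E18.5 hearts of batch 1 and 0.061 to 0.423 CPM in those of batch 2. Slc25a34, a mitochondrial carrier, was placed likewise, at 48.6, 61.6 and 46.2 CPM at P1 and a mean of 3.14 and 0.684 CPM in the E18.5 batches. Age and batch cannot be told apart for either gene.

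**Figure D4:**
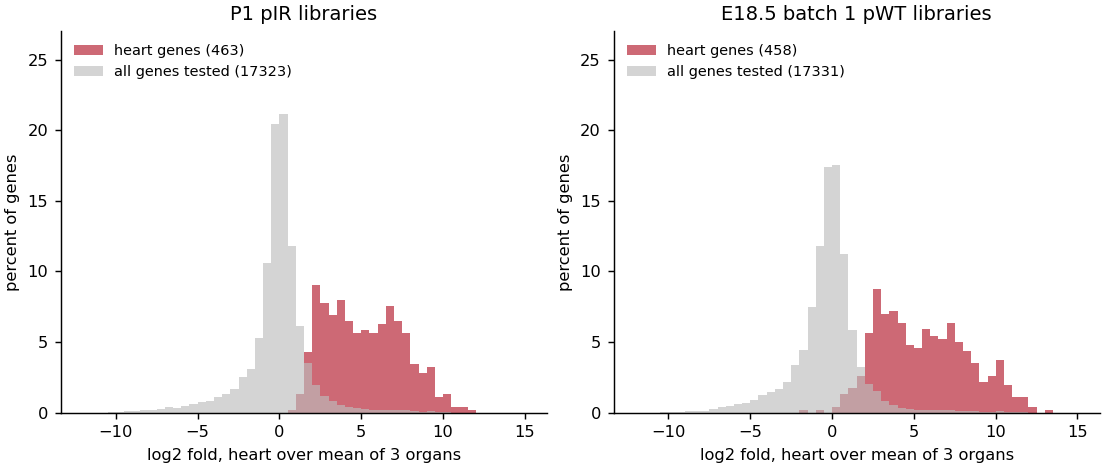
Percent of genes by log2 fold change of heart over the mean of kidney, liver and lung, for the 475 heart genes of P1 pWT that could be tested (red) and all genes tested (grey), in P1 pIR libraries (left, 463 and 17323 genes) and E18.5 batch 1 pWT libraries (right, 458 and 17331 genes). The heart genes centre on medians of 5.03 and 5.38, the rest on -0.01 and -0.12.

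Whether heart stood apart by the same measure in pIR and pWT was tested as an interaction over all 20 P1 libraries. Of 17862 genes, 558 (3.12%) had a larger and 758 (4.24%) a smaller heart excess in pIR than in pWT. For a gene below the mean of the other organs, a smaller excess stands for a larger deficit. Among the 475 heart genes, 3 were larger, 41 were smaller and 431 did not pass. These genes were chosen for a high excess in the same pWT libraries, which by itself favours a smaller value in pIR, so nothing is read from that split. The calls changed with the pIR heart that was used, where the lone heart left in the fit was assumed to vary like the other groups. Without the second pIR heart, edgeR called 30 genes (17 larger, 13 smaller) and 0 of the heart genes, of which 79 (16.6%) had an unadjusted p under 0.05, against 13.4% of all 18306 genes tested. Without the first pIR heart, 1932 genes were called.

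Genes known from the atria were among those called. Myl7 had 379 and 3756 CPM in the 2 pIR hearts, against 101, 135 and 76.3 CPM in the pWT hearts, and its heart excess differed by 5.32 on the log2 scale (adjusted p = 0.0059, edgeR). Myl4 had 328 and 2813 CPM in the pIR hearts, against 114, 174 and 90.6 CPM in the pWT hearts, a difference of 3.74 (adjusted p = 0.00785, edgeR). Both pIR hearts lay above all pWT hearts for these genes, the second by far. Gja5 (1.83), Stard10 (2.51) and Fgf12 (6.40) were called in the same direction. In all, 6 of 13 atrial genes were called larger and 0 smaller, where 3.12% of all genes were called larger. Without the second pIR heart, edgeR called 0 of the 13 (6 had an unadjusted p under 0.05), and Myl7 stood at 2.89 (adjusted p = 0.075), Myl4 at 1.5 (0.195), Stard10 at 0.90 (0.0735), Fgf12 at 3.20 (0.0705) and Gja5 at -0.27 (0.782). Myl3 was called in the other, at 4611 and 1932 CPM in the pIR hearts, against 5100, 6157 and 5877 CPM in the pWT hearts, a difference of -1.98 (adjusted p = 0.0491, edgeR) that was -1.48 (0.29) without the second pIR heart, while Myl2 did not pass at -1.82 (adjusted p = 0.11).

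Of the fatty acid list, 18 of 33 genes had a smaller heart excess in pIR and 0 a larger one. Over all genes, 4.24% were called smaller. The pattern was not confined to this list. In the list of glucose uptake and glycolysis, 7 of 27 were smaller and 0 larger. In that of phosphocreatine, oxygen store and ADP exchange, 6 of 18 were smaller and 0 larger. These counts use both pIR hearts. Acadl had 1202 and 929 CPM in the pIR hearts, against 1378, 1353 and 1193 CPM in the pWT hearts, a difference of -1.0 (adjusted p = 0.0044, edgeR), and Cd36 had 830 and 478 CPM, against 1503, 1373 and 1493 CPM, a difference of -1.02 (adjusted p = 0.0215). The difference is one of heart relative to the other organs, and those differed too. Mean Acadl was 427 CPM in pIR liver against 236 CPM in pWT liver, 198 CPM in pIR kidney against 135 CPM in pWT kidney, and 150 CPM in lung of both labels. For 16 of the 18 fatty acid genes, every pIR liver lay above every pWT liver. For 10, every pIR kidney lay above every pWT kidney. In heart itself, every pIR library lay below every pWT library for 5 of these 18 genes and above for 1. The share of such genes over all genes was not counted. The 18 were chosen for their difference in these same libraries, so nothing is read from these counts. Acot13, Fxyd1, Nnt, Slc25a34 and Pdlim5, the other heart genes of smallest p, differed by -1.22, -0.91, -0.84, -2.02 and -0.77. Fibroblast and matrix genes summed to 8665 and 13181 CPM in the pIR hearts, against 4002 to 5699 CPM in the pWT hearts, and their part in these differences was not tested. Without the second pIR heart, 0 of the 33 genes were called by edgeR. An unadjusted p under 0.05 was then held by 18 of the 33 (54.5%), against 13.4% of all genes, and Acadl stood at -0.81 (adjusted p = 0.0735) and Cd36 at -0.67 (0.245). Acot13, Fxyd1, Nnt, Slc25a34 and Pdlim5 stood at -0.92, -0.73, -0.61, -1.57 and -0.72, with adjusted p of 0.0922 to 0.0998.

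**Figure D5:**
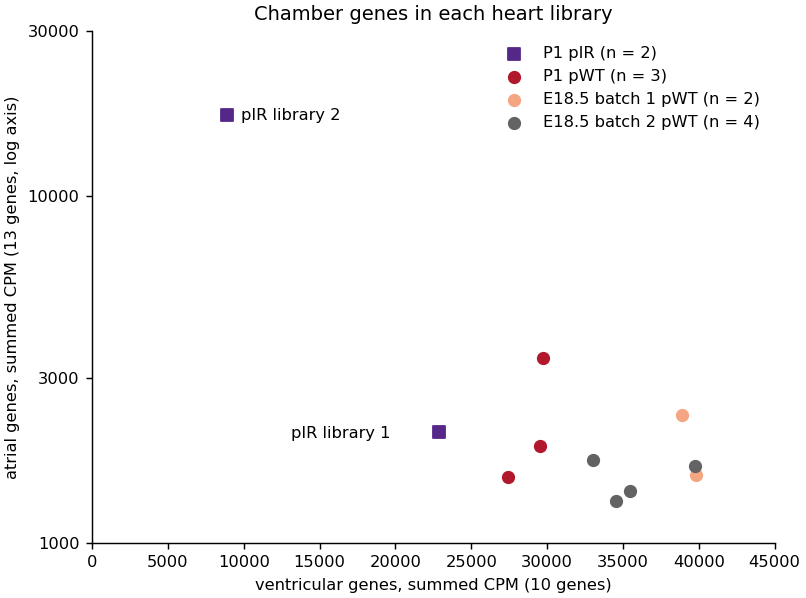
Summed CPM of the 13 atrial genes (log axis) against summed CPM of the 10 ventricular genes, 1 point per heart library, for P1 pIR (squares, n = 2), P1 pWT (n = 3) and E18.5 pWT of batch 1 (n = 2) and batch 2 (n = 4). The second pIR library stands alone at 17234 and 8878 CPM, and the first, at 2082 and 22887 CPM, lies next to the pWT hearts.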

How the data were processed

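Polyadenylated RNA of mouse organs was sequenced in bulk, and the authors deposited raw read counts for 25277 genes per table. Per the submitters' processing notes, Trim Galore 0.6.6, HISAT2 2.1.0, featureCounts 1.6.4, DESeq2 and the build mm10 were used. Whether counting used the strand is not stated. Coordinates and merged exon lengths were taken from the GENCODE annotation of GRCm38, the assembly that mm10 is built on, which matched 24426 of the gene symbols (96.6%), and promoter sequences from RefSeq for GRCm38.p6.

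The members, lists and tests were chosen with earlier results of these data known. Counts were fitted with the quasi-likelihood test of edgeR 4.0.16 in R 4.3.3, with TMM scaling, a filter on low counts (filterByExpr, minimum count 10) and Benjamini-Hochberg adjustment at 0.05 over all genes tested. Each comparison was fitted on its own libraries. Heart was contrasted with each organ and with the mean of the 3 on the log2 scale. CPM and RPKM (CPM per kilobase of merged exon) printed in the text were computed from library totals, without TMM scaling. Alternatives were DESeq2 1.42.0 (Wald test), its size factors within edgeR, all genes with a read, each library left out, both genotypes in 1 fit, other sets of organs, other fold limits and a replicate block. The scripts were tested on simulated data.

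Genes were named by rule: the 12 heart genes of at least 20 CPM with the largest smallest fold over the 3 organs, predicted genes left out, and the 6 lowest in heart. Of each list, the 4 called members of highest level and those called against most of the list were taken, with all isoform pairs, all cardiac transcription factors and up to 6 heart genes called between pIR and pWT. Other genes named were chosen after their values were seen. A few genes that the rules name are not reported here.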

Additional observations from a re-analysis of the deposited data

Results flagged for a closer look

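Each result here was picked out because the heart excess differed between pIR and pWT by a test of the difference itself (edgeR, interaction over the P1 libraries), apart from the last. The test called 1316 of 17862 genes, and 41 of the 475 heart genes had a smaller excess in pIR. The heart genes were chosen for a high excess in the same pWT libraries, which favours smaller values in pIR, so nothing is read from their count. Without the second pIR heart, with the lone heart assumed to vary like the other groups, 30 genes were called in all and 0 heart genes. None of the single genes named next was then called (lowest adjusted p 0.0705, edgeR), and Gja5 stood at -0.27. The excess is relative to kidney, liver and lung, so a difference may lie in those organs, as the Acadl values above show.

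Genes with a larger heart excess in pIR, on the log2 scale, included Fgf12 (6.40), Myl7 (5.32), Myl4 (3.74), Dkk3 (2.92), Stard10 (2.51) and Gja5 (1.83). All of these belong to the atrial list, whose summed level in the second pIR heart was 17234 CPM, and its part in these differences was not tested. Fgf12 and Stard10 lay below the mean of the other organs in pWT heart, so their values start from a deficit.

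Genes of fuel use and mitochondria with a smaller heart excess in pIR were Slc25a34 (-2.02), Acot13 (-1.22), Gatm (-1.18), Cox7a1 (-1.12), Pgam2 (-1.05), Cd36 (-1.02), Acadl (-1.0), Slc25a4 (-0.99), Slc25a5 (-0.98), Sirt5 (-0.93), Eno1 (-0.91), Nnt (-0.84), Pygl (-0.83), Cpt1a (-0.70) and Cox8a (-0.68). Others were Alb (-4.78), Myl3 (-1.98), Cdh5 (-0.95), Fxyd1 (-0.91) and Pdlim5 (-0.77). Alb, Gatm, Pygl and Cpt1a lay below the mean of the other organs in pWT heart, so their values are larger deficits. Alb averaged 2.36 CPM in pIR heart and 58754 CPM in pIR liver, against 29.5 and 22230 CPM in pWT.

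The share of Cox7a1 in its pair was 30.2% in 1 of the 4 E18.5 hearts of batch 2, against 28.8% to 29% in the others, a gap large for the range of the group. Of 16 pairs examined in this way, chance alone picks out about 1 in 20.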

How the results depend on the processing

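The count of genes that differed between P1 pWT heart and the other organs was 10568 to 11408 with a library left out, and that of heart genes 478 to 512, of which 452 to 473 were among the 475. The limit on the fold set that number: a log2 fold of at least 1 gave 1076 genes and of at least 3 gave 290. With a library left out, the pIR contrast called 8097 to 9562 genes and 456 to 468 heart genes higher. The E18.5 contrast called 4043 to 8779 genes, with 4043 and 4428 when a heart was left out and the lone heart was assumed to vary like the other groups, and 402 to 447 heart genes higher. In the difference between pIR and pWT, a lone pIR library was likewise assumed to vary like the other groups. It was the least steady: 30 to 1932 genes with a library left out (747 without the second and 837 without the third pWT heart), 2210 with DESeq2, and 0 to 70 heart genes with a smaller excess (26 without the second pWT heart). The cause was not tested.

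Of values for single genes, a few changed sign when an organ was left out of the mean. Without kidney, Hey1 stood at 0.58. Without liver, Alb stood at 1.08, Hba-a1, Hba-a2 and Hbb-bs at 0.43, Atp2b4 at 0.15, Cidec at 0.05, Gatm at 0.01, Cpt1a at 0.00 and Prdm16 at -0.38. Without lung, Hey1 stood at 0.90 and Tcf21 at 0.30. Without the second pIR heart, the pIR minus pWT difference of Gja5 was -0.27, and without the first it was 2.65.

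Same-numbered P1 pWT libraries of different organs correlated at -0.10 to 0.22 in their deviations from the group means (median 0.04). Of these 18 pairs, 4 were over 0.1. Differently numbered libraries correlated at -0.19 to 0.15 (median -0.03), with 3 of 36 pairs over 0.1. Whether the replicate numbers pair the libraries was not tested. With the replicate block, 11363 genes were called in P1 pWT, 10039 in pIR, 7464 at E18.5 and 1433 between pIR and pWT, and 475 heart genes were chosen. Groups of 2 libraries limit the pIR and E18.5 contrasts.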

Other observations

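Further gene groups were put together after the values had been seen, so their counts are descriptions. All 23 genes of pyruvate dehydrogenase and the citric acid cycle were higher in P1 pWT heart than in the mean of kidney, liver and lung (edgeR, adjusted p under 0.05; median log2 fold change 2.15), and 8 were above each organ by 4-fold. Idh2, an isocitrate dehydrogenase of mitochondria, had 1854, 2072 and 2026 CPM in the 3 hearts. At E18.5, 22 of the 23 were higher. Over all genes tested, 32.4% were called higher at P1 and 22.6% at E18.5. With both pIR hearts in the fit, 13 of the 23 had a smaller heart excess in pIR than in pWT and 0 a larger one. Over all genes, 4.24% were called smaller.

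Of 14 genes of the dystrophin complex, which ties the cytoskeleton of muscle to the matrix, 11 were higher and 3 did not pass (median 2.37). Only 6 were above each organ. Cav3, the caveolin of muscle, had 119, 147 and 132 CPM in heart. Of 14 genes of the intercalated disc, which joins cardiomyocytes end to end, 13 were higher and Nectin2 was lower (median 2.25). Only 4 were above each organ. Ctnnb1, Vcl and Tjp1 were higher by just 0.23, 0.37 and 0.39 on the log2 scale, and hearts overlapped with other libraries for each. Desmoplakin, Dsp, had 578, 554 and 549 CPM in heart. Of 11 Popeye genes and cardiac splicing factors, 10 were higher and Celf1 did not pass (median 5.18), and 5 were above each organ. Rbm20, which splices titin, had 443, 363 and 398 CPM in heart.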
